A study of Homo sapiens with 3 samples.

Results

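The mRNAs of the proteasome were followed in DDX6 eCLIP libraries of MOLM-13 cells. The members were the genes of the count tables whose symbol is PSMA, PSMB, PSMC, PSMD, PSME or PSMG followed by a number, with pseudogenes and antisense genes left out. This gave 46 of 36817 gene identifiers. Of these, 19 encode core subunits, 16 encode lid or base subunits of the regulatory particle, 7 encode assembly chaperones (PSMG1, PSMG2, PSMG3, PSMG4, PSMD5, PSMD9 and PSMD10) and 4 encode proteasome activators. The base subunit PSMD2 was not analysed here.

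The proteasome degrades proteins that carry ubiquitin chains. Its core particle is a barrel in which outer rings of alpha subunits gate the entrance and inner rings of beta subunits hold the proteolytic sites. The regulatory particle caps the barrel: its base unfolds substrates with a ring of PSMC ATPases, and its lid removes ubiquitin. Dedicated chaperones build the rings, activators of the PSME family can cap the core in place of the regulatory particle, and blood cells use the inducible beta subunits PSMB8, PSMB9 and PSMB10 to make peptides for antigen presentation. DDX6 is an RNA helicase that holds mRNAs out of translation and takes part in their decapping.

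In eCLIP, RNA fragments cross-linked to a protein are pulled down with an antibody to it, sequenced and set against the RNA of an input library, here from MOLM-13, a line grown from a human acute myeloid leukaemia. The groups were DDX6 IP, with 2 libraries, and input, with 1 library for both IPs, for which the labels name no antibody. The labels name no genotype or treatment for either group, and all 3 libraries came from cells cross-linked with ultraviolet light and treated with RNase I. The labels do not say that the IP libraries came from separate cultures. Each edgeR or DESeq2 p-value here therefore reflects only how far these libraries spread, and that spread may be technical. In edgeR it was mostly or wholly pooled over genes or regions. The -log10 p of the peaks below is the authors' own, from 1 list per IP library. It does not measure the spread between libraries.

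Depth was 4643494 and 1244213 counted reads in the IP libraries and 7807540 in the input, with exonic shares of 67.6% and 62.6% in the IP libraries and 30.7% in the input. The members took 6742 and 1820 exonic reads in the IP libraries and 5464 in the input. A tested member had between 11 and 413 exonic reads in the input, with a median of 112. In the input 8 of 9 myeloid markers had at least 10 exonic reads, against 1 of 5 lymphoid markers (CD3D, with 15 reads). The myeloid markers LYZ, MPO and CEBPA had 1875, 1261 and 923 reads, and the monocyte marker CD14 had 1. The erythroid markers summed to 3 reads and the epithelial markers to 11. In bulk libraries fewer cells of a type and less RNA per cell cannot be told apart.

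As a family, proteasome mRNAs made up about the same share of exonic reads in both IP libraries as in the input. The share was 0.215% in IP replicate 1 (95% exact Clopper-Pearson interval 0.210 to 0.220%) and 0.234% in IP replicate 2 (0.223 to 0.245%), against 0.228% in the input (0.222 to 0.234%). These intervals and those below cover counting error only. The share in the input lay between those of the IP libraries. Of the 46 members, 44 had at least 10 reads in at least 2 libraries and entered edgeR's quasi-likelihood fit over 10392 genes. The testis subunit PSMA8 had 0 exonic reads in all 3 libraries, which allows up to 3 reads in each, and the thymus subunit PSMB11 had 1 read in IP replicate 1 and 0 in the others.

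In the gene fit 4 of 44 members, 9.09%, were lower in the IP at an edgeR adjusted p under 0.05: the activator PSME3, the chaperone PSMG4, the lid subunit PSMD11 and the beta subunit PSMB2. Over all genes 11.4% were lower and 16.7% higher. No member was called higher by edgeR, and 0 were higher at an unadjusted p under 0.05 or by DESeq2, which called 6.53% of all genes higher and 2.46% lower. The median log2 fold of the members was -0.18, beside 0.003 for all genes and 0.04 for protein-coding genes, of which 17.5% were called higher and 9.4% lower. With IP replicate 1 alone the median was -0.20, with 12 members above 0 and 32 below. With IP replicate 2 alone it was -0.04, with 20 above and 24 below. In both IP libraries 23 members were below 0 and 11 above, and the other 10 changed sign between them. The 95% interval of 27 of the 44 lay within a log2 fold of 1 either side of 0.

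All these folds are relative to TMM scaling, which sets the middle of the exonic genes near 0. Scaling to all counted reads, with those in introns and between genes, put the median of all genes at 1.24 and that of the members at 1.06. On that scale 34 of 44 members were called higher by edgeR, where 67.3% of all genes were, and 0 were called lower or had an unadjusted p under 0.05 in that direction, where 1.36% of all genes were called lower. The folds below are relative to the middle of all genes unless another scale is named. When intronic reads were added to the exonic ones, 5 members were higher (PSMA4, PSMB4, PSMB9, PSMD7 and PSME1), where 19.6% of all genes were. With those reads 6 were lower (PSMA5, PSMB7, PSMD1, PSMD9, PSMD11 and PSMD14), where 18.6% of all genes were. PSME3, PSMG4 and PSMB2, called lower on exonic reads, were then not called (log2 folds -0.22, -0.53 and -0.42).

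PSME3 encodes the nuclear activator that binds the core without ATP. It had 73.1 and 77.0 CPM (counts scaled to the depth of each library) in the IP libraries and 187 CPM in the input, from 234, 61 and 413 reads. The IP mean was 75.0 ± 2.8 CPM (SD, n = 2), and the input was 2.50-fold above it. The log2 fold was -1.32 (SE 0.25, edgeR adjusted p 2.07e-05), and -0.09 with scaling to all counted reads. Both IP libraries were below the input and close to each other, and this was the one member that DESeq2 also called (adjusted p 0.0132).

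PSMG4 is a small chaperone that pairs with PSMG3 to start the alpha ring. Its mRNA had 25.0 and 40.4 CPM in the IP libraries and 72.8 CPM in the input, from 80, 32 and 161 reads. The log2 fold was -1.26 (SE 0.32, edgeR adjusted p 0.00158), and -0.02 with scaling to all counted reads. Both IP libraries were below the input, with IP replicate 1 the lower of the pair.

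PSMD11 is a scaffold subunit of the lid. It had 45.6 and 65.6 CPM in the IP libraries and 109 CPM in the input, from 146, 52 and 241 reads. Its log2 fold was -1.04 (SE 0.28, edgeR adjusted p 0.00305), and 0.20 with scaling to all counted reads, where the middle gene stood at 1.24.

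PSMB2, a structural beta subunit, was the fourth called member. It had 41.2 and 59.3 CPM in the IP libraries and 82.3 CPM in the input, from 132, 47 and 182 reads. Its log2 fold was -0.78 (SE 0.30, edgeR adjusted p 0.0398), and 0.46 with scaling to all counted reads. DESeq2 called none of PSMG4, PSMD11 and PSMB2, with adjusted p of 0.164, 0.167 and 0.400. For each of these mRNAs both IP libraries stood below the input.

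The members with the largest folds belonged to the regulatory particle, and none of them passed the test. The base ATPase PSMC2 had 57.2 and 66.9 CPM in the IP libraries and 42.1 CPM in the input (log2 fold 0.54, SE 0.32, edgeR adjusted p 0.206). The base ATPase PSMC1 had 25.3 and 16.4 CPM in the IP libraries and 15.4 CPM in the input (log2 fold 0.52, SE 0.44, edgeR adjusted p 0.408). The lid subunit PSMD6 had 61.2 and 58.0 CPM in the IP libraries and 43.9 CPM in the input (log2 fold 0.45, SE 0.31, edgeR adjusted p 0.296). For all 3 mRNAs both IP libraries were above the input. In the RefSeq annotation of GRCh38.p14 PSMC1 overlaps NRDE2, PSMC2 overlaps SLC26A5 and PMPCB, and PSMD6 overlaps its antisense RNAs, and how the counting split such reads is not given in the sources used here.

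**Figure D1:**
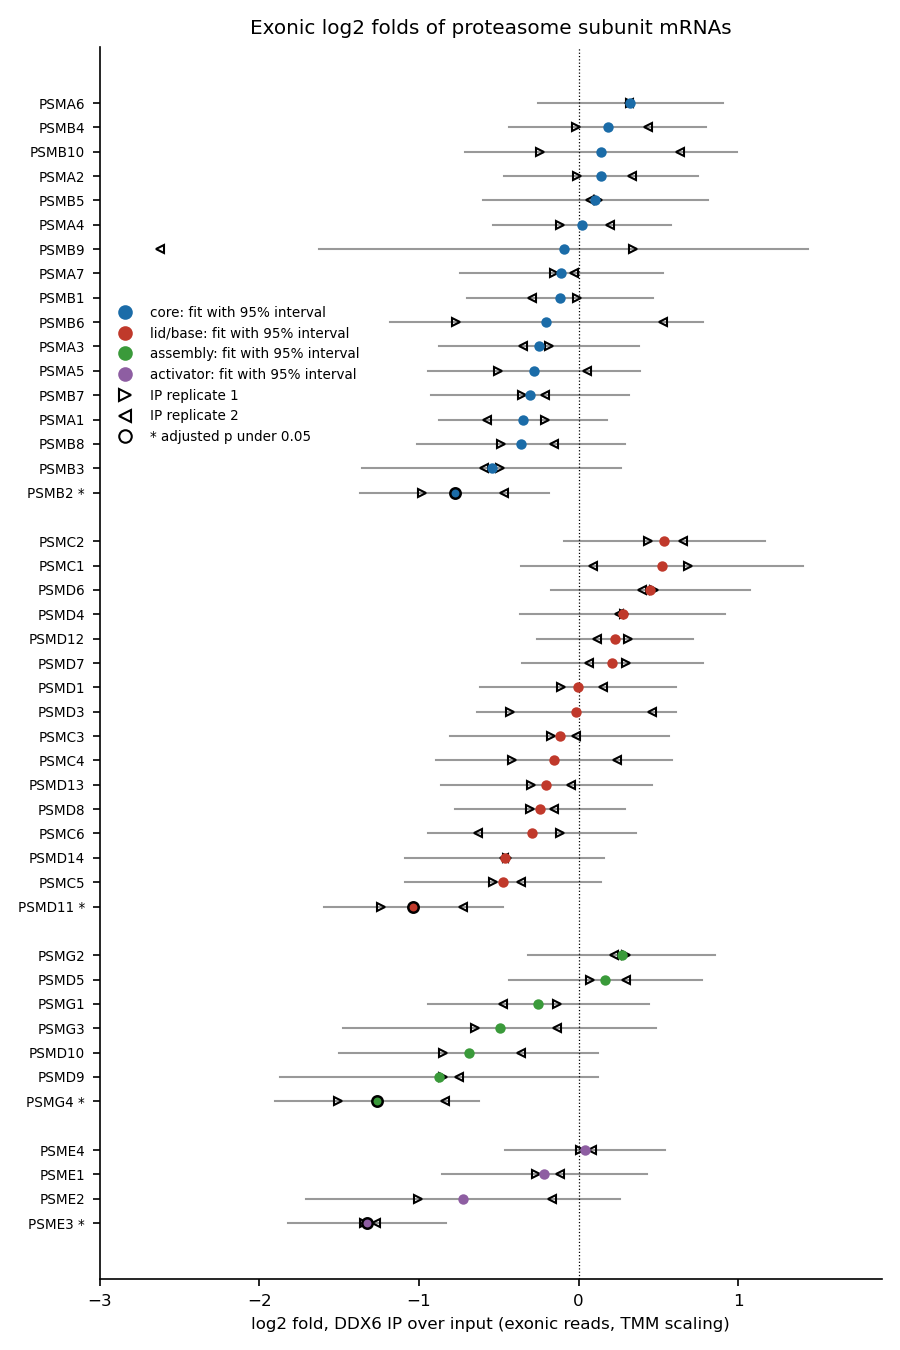
Log2 fold of DDX6 IP over input for exonic reads of the 44 tested proteasome mRNAs (TMM scaling), by group from core (top) through lid and base and assembly to activators (bottom), with the fitted value and its 95% interval as a filled circle and line and the separate IP replicates as open triangles. The 4 ringed members, PSMB2, PSMD11, PSMG4 and PSME3, lie below 0 with their intervals. With scaling to all counted reads none of them is called: PSMB2 and PSMD11 lie above 0, PSMG4 at -0.02 and PSME3 at -0.09.

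By role, the 17 tested core subunits had a median log2 fold of -0.12, the 16 lid and base subunits -0.07, the 7 assembly chaperones -0.49 and the 4 activators -0.47, and each group held 1 of the 4 genes called lower. With scaling to all counted reads, 34 of the 44 single folds were called above 0. With TMM scaling and IP replicate 1 alone the medians were -0.18 for core, -0.14 for lid and base and -0.65 for assembly. With IP replicate 2 alone they were -0.03, 0.08 and -0.36. The assembly chaperones had the lowest of these 3 exonic medians with either library, and the difference between the groups was not tested. In coding sequence, in the region fit below, the order was not the same. The coding medians there were 0.66 for core, 0.73 for lid and base and 0.78 for assembly. Those of the 3'UTRs were -0.33, -0.21 and -0.71. Within the core, alpha subunits had a median of -0.11, constitutive beta subunits -0.20 and inducible beta subunits -0.09. Base subunits had -0.06 and lid subunits -0.11.

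The assembly chaperones were not uniform. The chaperones of the core particle had a median of -0.37 (n = 4) and those of the base -0.69 (n = 3). PSMG1 had 33.7 and 26.5 CPM in the IP libraries and 37.1 CPM in the input (log2 fold -0.25, SE 0.35), while its partner PSMG2 had 71.8 and 68.1 CPM in the IP libraries and 58.4 CPM in the input (0.27, SE 0.29). These chaperones work as a dimer, and on this scale their mRNAs lay on opposite sides of 0 without passing the test. They also did with intronic reads added (-0.24 and 0.12). With coding reads alone both were below 0 (-0.20 and -0.07). With scaling to all counted reads both were above 0 (0.99 and 1.51), where the middle gene stood at 1.24. PSMG3, the partner of PSMG4, had 10.3 and 15.1 CPM in the IP libraries and 16.7 CPM in the input (-0.49, SE 0.49). Of the base chaperones, PSMD9 had 9.37 and 10.1 CPM in the IP libraries and 17.6 CPM in the input (-0.87, SE 0.50). PSMD10, the oncoprotein also called gankyrin, had 15.9 and 22.7 CPM in the IP libraries and 29.4 CPM in the input (-0.69, SE 0.41). For both the IP libraries were below the input, with wide errors from 39 and 65 input reads. PSMD5 was the exception among base chaperones, at 57.2 and 66.9 CPM in the IP libraries and 54.3 CPM in the input (0.17, SE 0.30). PSMD10 overlaps ATG4A, and PSMG2 overlaps CEP76 and SPIRE1, in the RefSeq annotation.

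Among the activators, PSME1 and PSME2 form the interferon-inducible ring that caps the core. PSME1 had 39.7 and 44.2 CPM in the IP libraries and 47.9 CPM in the input (log2 fold -0.21, SE 0.32). PSME2 had 8.74 and 16.4 CPM in the IP libraries and 18.5 CPM in the input (-0.73, SE 0.49). PSME4, a large single-chain activator with a role in chromatin, had 125 and 131 CPM in the IP libraries and 124 CPM in the input (0.04, SE 0.25). PSME3 was the activator that passed the test, and the other 3 did not.

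The inducible beta subunit PSMB9 had the widest error of the family. It had 21 exonic reads in IP replicate 1, 0 in IP replicate 2 and 11 in the input, and its log2 fold was 0.34 with IP replicate 1 and -2.62 with IP replicate 2. PSMB8 had 35.0 and 44.2 CPM in the IP libraries and 49.3 CPM in the input (log2 fold -0.36, SE 0.33). PSMB10 had 17.5 and 32.8 CPM in the IP libraries and 20.8 CPM in the input (0.14, SE 0.43). The input value of PSMB10 lay between the IP libraries.

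In the IP a larger share of the reads on proteasome mRNAs lay in coding sequence and a smaller share in 3'UTRs than in the input. Of the members' reads in coding sequence and UTRs together, 74.4% in IP replicate 1 (interval 73.3 to 75.4%) and 73.7% in IP replicate 2 (71.6 to 75.7%) lay in coding sequence, against 59.7% in the input (58.4 to 61.0%). The 3'UTR held 20.0% (19.0 to 21.0%) and 19.2% (17.4 to 21.1%) in the IP libraries, against 35.2% in the input (34.0 to 36.5%). The 5'UTR held 5.64% and 7.03% in the IP libraries and 5.09% in the input. Coding shares were above the input in both IP libraries and 3'UTR shares below it, with intervals that did not overlap.

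Over all genes the coding and 3'UTR shares differed from the input in the same directions. Of their coding and UTR reads 57.2% and 58.9% lay in coding sequence in the IP libraries, against 46.1% in the input, and 37.2% and 34.0% lay in 3'UTRs in the IP libraries, against 47.3% in the input. In each of the 3 libraries the members' 3'UTR share was below that of all genes. For assembly chaperones the share was 21.7% and 25.3% in the IP libraries and 48.0% in the input, and for activators 29.2% and 30.05% in the IP libraries and 50.7% in the input. PSME3 gave 324 of the 423 activator 3'UTR reads in the input, and the other 3 activators together had 13.5% and 13.8% in the IP libraries and 23.5% in the input. Without PSMG4 the assembly chaperones had 20.8% and 23.5% in the IP libraries and 40.7% in the input. Core subunits had 18.3% and 15.7% in the IP libraries and 30.6% in the input, and lid and base subunits had 18.4% and 17.6% in the IP libraries and 29.4% in the input.

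**Figure D2:**
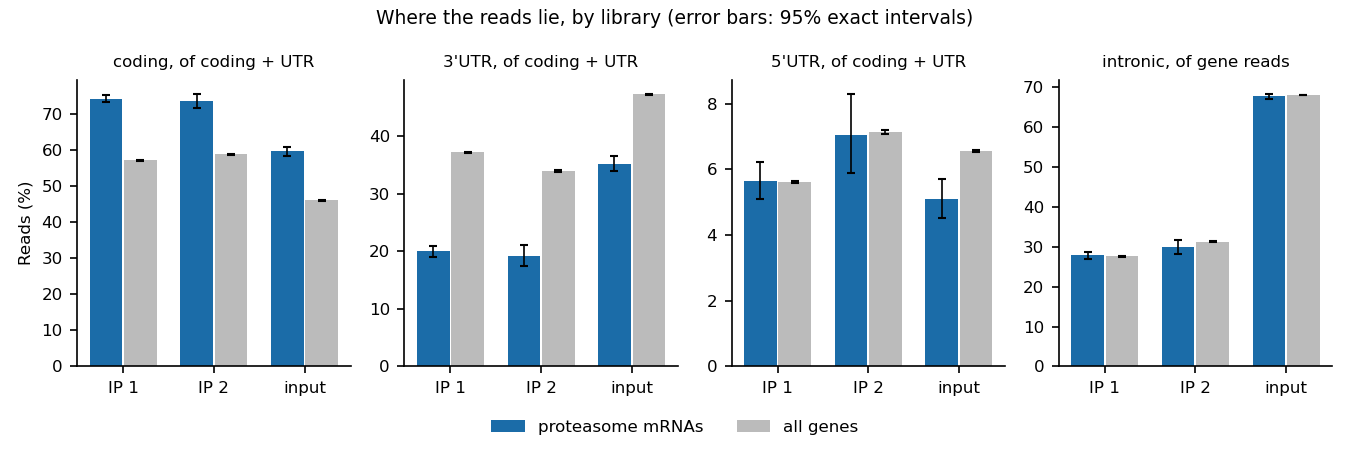
Share of reads, in percent, by transcript region in each IP replicate and in the input, for proteasome mRNAs (blue) and all genes (grey); the first 3 panels are of coding and UTR reads, the last of exonic plus intronic reads, and error bars are 95% exact intervals. The members' 3'UTR share was 20.0% and 19.2% in the IP libraries, against 35.2% in the input, and that of all genes 37.2% and 34.0% in the IP libraries, against 47.3% in the input.

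In the region fit, where each region of each gene was tested beside all others, the coding sequence of 12 of 43 members, 27.9%, was higher in the IP, while the other 31 did not pass. Over all coding regions 51.2% were called higher. The median log2 fold was 0.69 for the members and 1.02 for all coding regions. TMM scaling here runs over exonic and intronic rows together, so the coding fold is relative to that middle. The alpha subunit PSMA2 led with 26.8 and 37.5 CPM in the IP libraries and 9.90 CPM in the input (log2 fold 1.65, SE 0.40, edgeR adjusted p 0.000138). The base ATPase PSMC2 had 32.1 and 35.2 CPM in the IP libraries and 12.8 CPM in the input (1.38, SE 0.39, edgeR adjusted p 0.000989). The lid subunit PSMD12 had 79.7 and 64.9 CPM in the IP libraries and 28.8 CPM in the input (1.35, SE 0.34, edgeR adjusted p 0.000256). In all 3 genes each IP library stood at more than 2-fold the input.

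The other called coding regions spanned the complex. In the core they were the alpha subunit PSMA6 (log2 fold 0.97, SE 0.37) and the beta subunit PSMB4 (0.86, SE 0.37). In the base they were the ATPase PSMC1 (1.15, SE 0.47) and the ubiquitin receptor PSMD4 (0.96, SE 0.39), and in the lid PSMD6 (1.03, SE 0.38) and PSMD7 (1.02, SE 0.37), the partner of the deubiquitinase PSMD14. The chaperones PSMD5 (1.24, SE 0.40) and PSMG2 (0.96, SE 0.37) and the activator PSME4 (0.80, SE 0.33) completed the set. By group, 3 of 16 core, 6 of 16 lid and base, 2 of 7 assembly and 1 of 4 activator coding regions were called. Each of these shares was below the 51.2% of all coding regions. DESeq2 called 3 of 40 higher, where it called 33.1% of all coding regions. With no read filter 3 of 44 were higher, where 20.0% of all were, and with at least 30 reads in at least 2 libraries 23 of 38 were, where 68.8% of all were. With scaling to all counted reads 35 of 43 were higher, where 78.6% of all were.

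Few 3'UTRs of the members passed the test. Of 32 tested, 3 were lower in the IP (PSMG4, PSMB2 and PSME3) and 1 was higher (PSMB5). Over all 3'UTRs 6.83% were lower and 23.9% higher. The members' median log2 fold was -0.28, beside 0.28 for all 3'UTRs. The PSMG4 3'UTR had 4.67 and 8.6 CPM in the IP libraries and 21.3 CPM in the input (log2 fold -1.86, SE 0.44, edgeR adjusted p 8.63e-05). The PSMB2 3'UTR had 9.74 and 7.82 CPM in the IP libraries and 23.0 CPM in the input (-1.33, SE 0.40, edgeR adjusted p 0.00212). The PSME3 3'UTR had 31.5 and 33.6 CPM in the IP libraries and 61.7 CPM in the input (-0.93, SE 0.32, edgeR adjusted p 0.00892). In each of the 3 both IP libraries were below the input. With scaling to all counted reads 1 of the 32 was called lower, where 1.04% of all 3'UTRs were. DESeq2 called 0 of the 15 to which it gave an adjusted p lower, where 1.27% of all were. With no read filter 5 of 44 were lower, where 5.48% of all were.

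PSMB5, the beta subunit with the chymotrypsin-like site that bortezomib blocks, was the one 3'UTR called higher. It had 9.13 and 10.9 CPM in the IP libraries and 3.81 CPM in the input. Its log2 fold was 1.35 (SE 0.53, edgeR adjusted p 0.0229), and it rests on 45, 14 and 20 reads. No member 3'UTR was called higher by DESeq2 (15 with an adjusted p) or with no read filter (44 tested). With at least 30 reads in at least 2 libraries none of 12 was, and PSMB5 was not tested. With scaling to all counted reads 4 of 32 were called higher. The share of all 3'UTRs called higher in these settings is not given here. PSMB5 coding sequence had 12.8 and 8.6 CPM in the IP libraries and 9.14 CPM in the input (0.31, SE 0.45), with the input between the IP libraries. In the 5'UTR, 6 members could be tested and PSMA1 was called higher, where 33.2% of all 5'UTRs were. The PSMA1 5'UTR had 9.33 and 12.5 CPM in the IP libraries and 4.0 CPM in the input. Its log2 fold was 1.38 (SE 0.53, edgeR adjusted p 0.0178), and it rests on 46, 16 and 21 reads. The median of the 6 was 0.70, beside 0.74 for all 5'UTRs.

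The genes called lower as a whole differed in where their reads were. PSME3 coding sequence had 15.2 and 12.5 CPM in the IP libraries and 13.7 CPM in the input (log2 fold 0.06, SE 0.41). PSMD11 coding sequence had 15.0 and 20.3 CPM in the IP libraries and 15.8 CPM in the input (0.10, SE 0.39), and its 3'UTR had 14.6 and 20.3 CPM in the IP libraries and 29.1 CPM in the input (-0.80, SE 0.37, edgeR adjusted p 0.0521). In both genes the input coding value lay between the IP libraries. PSMG4 coding sequence had 11.6 and 14.9 CPM in the IP libraries and 8.95 CPM in the input (0.51, SE 0.45). PSMB2 coding sequence had 14.0 and 22.7 CPM in the IP libraries and 9.33 CPM in the input (0.88, SE 0.43, edgeR adjusted p 0.0669). On the scale of this fit both IP libraries of PSMG4 and PSMB2 were above the input in coding sequence and below it in the 3'UTR. The median coding region of all genes stood at 1.02 on that scale.

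With coding reads alone, fitted and scaled by themselves, edgeR called 0 of the 43 members tested in either direction, where 11.8% of all genes were called higher and 6.57% lower. At an unadjusted p under 0.05 there were 7 members, all with a fold below 0, and the share of all genes at that limit was not computed. The median of the members was then -0.35, beside -0.01 for all coding regions. The coding log2 fold was -0.97 for PSME3 (adjusted p 0.0545), -0.93 for PSMD11 (0.0645), -0.53 for PSMG4 (0.398) and -0.16 for PSMB2 (0.827). With IP replicates 1 and 2 it was -0.64 and -0.27 for PSMG4, and -0.44 and 0.26 for PSMB2. For PSMA2 it was 0.38 and 0.89.

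**Figure D3:**
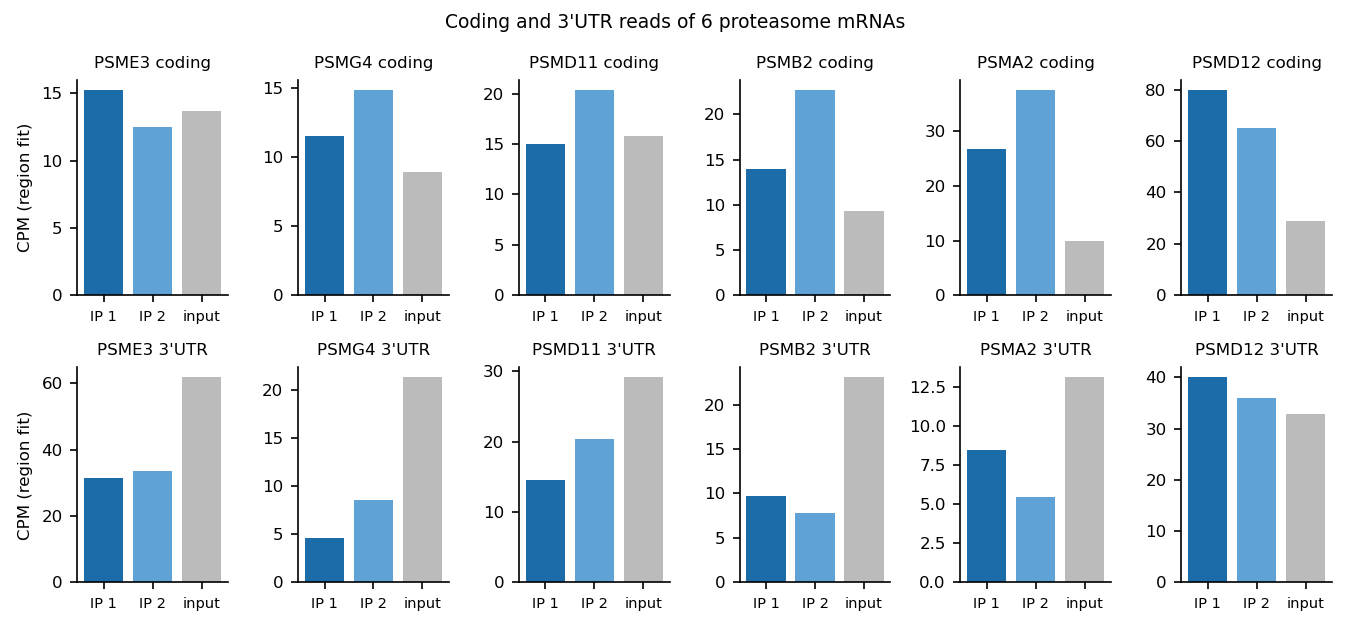
Coding (top row) and 3'UTR (bottom row) reads of 6 proteasome mRNAs, in CPM on the scale of the region fit, with a bar for each IP replicate and 1 for the input. On this scale both IP libraries of PSMG4, PSMB2 and PSMA2 stand above the input in coding sequence and below it in the 3'UTR. PSMD12 is above the input in both regions. The median coding region of all genes has a log2 fold of 1.02 on this scale. With coding reads scaled by themselves PSMG4 is below the input in both IP libraries, and PSMB2 in IP replicate 1 only.

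Set against each other within a gene, coding sequence stood above the 3'UTR in 28 of the 32 members with both regions tested, and in 27 with each of the IP libraries. The median difference in log2 fold, coding minus 3'UTR, was 0.94 for the members and 0.83 for 6552 genes. Of all those genes 86.8% had a positive difference, and 78.6% had one with each library, beside 87.5% and 84.4% of the members. The median difference was 0.79 for core, 0.88 for lid and base, 1.18 for assembly and 0.94 for activators.

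PSMA2, PSMG4 and PSMB2 had the widest differences, at 2.45, 2.37 and 2.22. PSMA2 coding sequence had 132, 48 and 52 reads and its 3'UTR 42, 7 and 69 reads, with the input last. Among the 32, the differences of PSMB5, PSMA4, PSMD4 and PSMA3 were below 0, at -1.04, -0.32, -0.30 and -0.003.

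**Figure D4:**
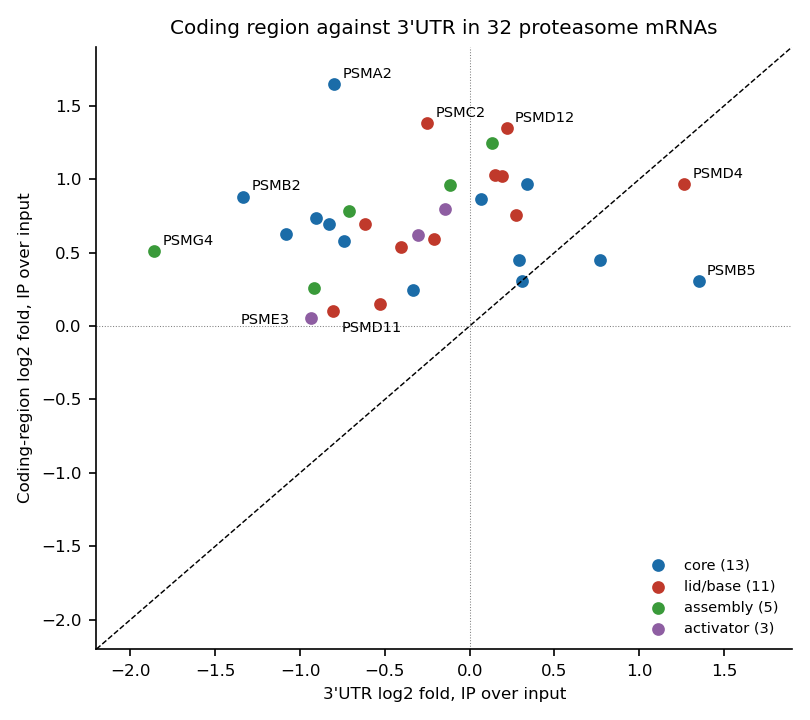
Log2 fold of IP over input in coding sequence (vertical axis) against that in the 3'UTR (horizontal axis) for the 32 proteasome mRNAs with both regions tested, coloured by group, with the dashed line marking equal folds. Of the 32 mRNAs 28 lie above the line, PSMA2, PSMG4 and PSMB2 farthest from it, and PSMB5 lies farthest below.

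edgeR's test of unequal use compared each exonic region with its gene's whole fold, and covered 71 regions of 33 members. One region was called, the 3'UTR of PSMA2, which was 1.55 log2 units below the fold of its gene (edgeR adjusted p 0.0195). Over all regions 3.31% were called in either direction, and 2.47% of 3'UTRs were called lower. The next in order were the 3'UTR of PSMB2 (-1.19, edgeR adjusted p 0.0588) and that of PSMG4 (-1.23, edgeR adjusted p 0.0808), which did not pass. At an unadjusted p under 0.05 there were 11 regions, where PSMA2, PSMB2 and PSMG4 each count by coding sequence and by 3'UTR. Without a read filter no member region was called, where 0.255% of all regions were, while 17 had an unadjusted p under 0.05. The share of all regions at that unadjusted p was not computed for either count.

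Across the members, a larger 3'UTR share in the input went with a lower exonic fold. Pearson's r was -0.55 and Spearman's rho -0.37 over 44 mRNAs, as a description, since both measures use the same input reads. With the share taken from the IP libraries the values were -0.48 and -0.26. Over protein-coding genes r was -0.10 with the input share (n = 9480) and -0.05 with the IP share (n = 9482). The median 3'UTR share of a gene's exonic reads in the input was 27.5% for the members and 46.4% for protein-coding genes.

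Intronic reads, which can come from unspliced transcripts, took a smaller share of the IP libraries. They made up 27.9% of the members' gene reads in IP replicate 1 (interval 27.0 to 28.8%) and 780 of 2600 gene reads in IP replicate 2 (28.2 to 31.8%), against 67.7% in the input (67.0 to 68.4%). Over all genes the shares were 27.6% and 31.3% in the IP libraries and 68.1% in the input. In the region fit the introns of 35 of 41 members, 85.4%, were lower in the IP, where 83.0% of all introns were. DESeq2 called 21 of 36 lower, where it called 69.1% of all introns. The median log2 fold was -1.96 for the members and -1.93 for all introns. The introns of the deubiquitinase PSMD14 were lowest, with 29.4 and 30.5 CPM in the IP libraries and 182 CPM in the input (log2 fold -2.61, SE 0.31). With scaling to all counted reads the introns of 28 of 41 members were lower and 2 were higher. The shares of all introns on that scale are not given here.

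The 6 introns that did not pass with TMM scaling were those of the constitutive subunits PSMB4 and PSMC3, the inducible PSMB8, PSMB9 and PSMB10, and the activator PSME1. They were named after their values were seen. PSMB4 introns had 16 and 3 reads in the IP libraries and 33 in the input. PSMC3 introns had 31 and 11 against 65, and PSMB10 introns 18 and 4 against 33. PSME2, the ring partner of PSME1, had 14 and 3 intronic reads in the IP libraries and 56 in the input. Its introns were called lower. PSMB9 introns had 98 and 18 reads in the IP libraries and 60 in the input (log2 fold 0.63, SE 0.41). Most of these lay in the distal intron class, with 86 and 17 in the IP libraries and 46 in the input. PSME1 introns had 33 and 7 reads in the IP libraries and 20 in the input (0.72, SE 0.59). All but 3 and 0 of those in the IP libraries and 2 in the input lay at splice sites. PSMB8 introns had 12 and 4 reads in the IP libraries and 17 in the input (-0.29, SE 0.74), and PSMB8 overlaps the antisense RNA PSMB8-AS1 in the RefSeq annotation.

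Where intronic reads remained, a larger share of them was near splice sites. The windows at 5' splice sites held 12.6% and 13.3% of the members' intronic reads in the IP libraries and 6.39% in the input. The windows at 3' splice sites held 11.2% in IP replicate 1 and 78 of 780 reads in IP replicate 2, against 5.84% in the input. Distal introns held 59.4% and 61.2% in the IP libraries and 68.9% in the input. Both IP libraries stood on the same side of the input in each class. The shares of these classes were not computed over all genes, so they are not read as a trait of the members.

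Few sites of strong enrichment lay in proteasome mRNAs. The authors' deposited lists, 1 per IP library, held 480 peaks in 44 members for IP replicate 1 and 258 peaks in 43 members for IP replicate 2. Limits of 3 on the authors' -log10 p and 3 on their log2 fold over input, which are usual for eCLIP, were passed by 7 member peaks (1.46%) in 6 genes and by 12 (4.65%) in 9 genes. Over all genes 11.5% of 123298 peaks and 12.9% of 62411 peaks passed. The authors' median log2 fold was 1.32 for member peaks and 1.77 for all peaks in IP replicate 1, and 1.64 for member peaks and 2.29 for all peaks in IP replicate 2. Coding sequence held 389 and 208 of the member peaks, 81.0% and 80.6%, beside 54.6% and 58.1% of all peaks. Of the member peaks past the limits 7 of 7 and 11 of 12 were in coding sequence, beside 71.1% and 67.0% of all passing peaks. Among coding peaks 1.80% and 5.29% of the members' passed, where 14.9% of all coding peaks did in each list. Of member peaks in 3'UTRs 0 of 37 and 0 of 27 passed, where 10.6% and 10.8% of all 3'UTR peaks did. Stricter limits of 5 on the -log10 p and 4 on the log2 fold were passed by 0 and 1 member peaks, where 2.4% and 2.34% of all peaks passed. With the log2 limit at 1, 22.9% and 14.3% of member peaks passed, where 34.3% and 23.9% of all peaks did.

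Peak coordinates follow the authors' deposited lists, in hg19. The member peak with the largest -log10 p past both limits was in PSMD12, at chr17:65353419-65353489 on the minus strand, with a -log10 p of 14.6 and a log2 fold of 3.1 in IP replicate 1. PSMD7 followed at chr16:74339533-74339554, with a -log10 p of 14.5 and a log2 fold of 3.01. PSMC1 had one at chr14:90730004-90730063 (8.74 and 3.11). These 3 genes are also among the 12 whose coding sequence was called higher. Both measures use the same reads, so this is no separate support. PSMC6, another base ATPase, PSMD4 and PSMC2 held the remaining 4 peaks of IP replicate 1. Their log2 folds were 3.01 for PSMC6, 3.1 for PSMD4, and 3.51 and 3.71 for PSMC2. The coding sequence of PSMC6 was not called (edgeR adjusted p 0.123).

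In the authors' list for IP replicate 2, peaks past the limits lay in PSMA1, PSMA2, PSMA6, PSMA7, PSMB6, PSMC2, PSMD3, PSMD4 and PSME4. PSMA2 had 2, at chr7:42966135-42966174 (log2 fold 3.49) and chr7:42971730-42971775 (3.64), the second across the border of 5'UTR and coding sequence. PSMA6 also had one across that border, at chr14:35761625-35761754 (3.06). PSMA7 had 2 in coding sequence (3.38 and 3.53), and the beta subunit PSMB6 had one at chr17:4701333-4701437 (3.81). The lid subunit PSMD3 had one of 3.23, PSME4 one of 3.52 and PSMD4 one of 3.23. The single peak outside coding sequence was in a distal intron of PSMA1, at chr11:14621817-14621916 (3.96).

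One site passed in both lists by an overlap of at least 1 base. It was in the coding sequence of PSMC2 on the plus strand, at chr7:103004696-103004746 in IP replicate 1 and chr7:103004638-103004734 in IP replicate 2. The authors' log2 folds were 3.51 and 4.52 and their -log10 p 5.58 and 7.07. The peaks shared 39 bases, 76.5% of the first and 40.2% of the second. PSMC2 was also the member with the largest exonic fold, which did not pass the test, and the second largest coding fold. The exonic fold, the coding fold and the shared peak draw on the same reads, so they are not separate support. Of the passing peaks of IP replicate 1, 14.3% of the members' and 22.1% of all were overlapped in IP replicate 2. None of the 1587 peaks in the authors' reproducible list overlapped a member peak. Members held only 7 of the 14133 passing peaks of IP replicate 1 and 12 of the 8036 of IP replicate 2. The lack of overlap is therefore not read as a trait of the members.

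**Figure D5:**
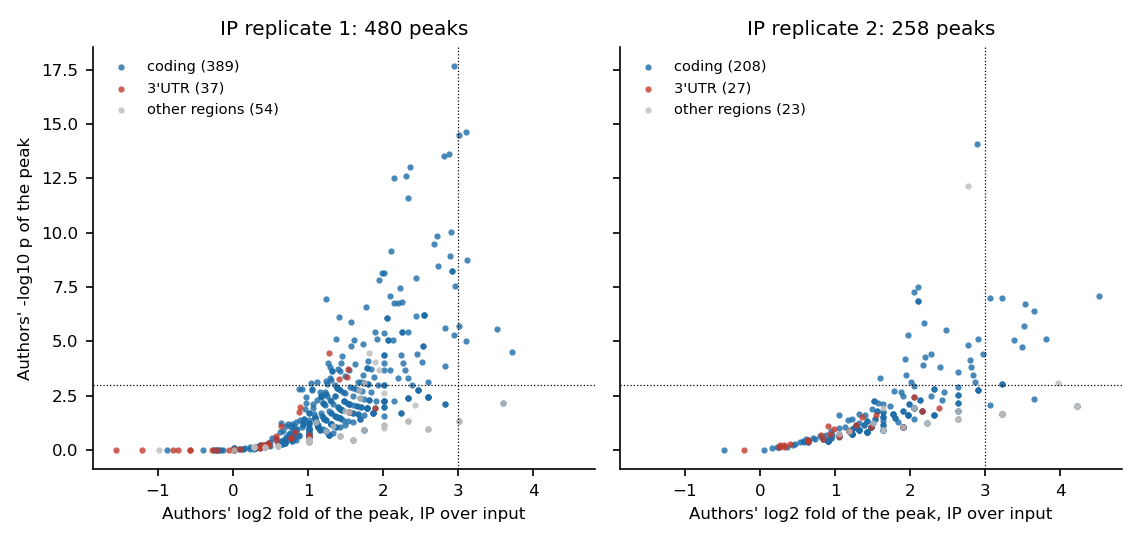
The authors' -log10 p (vertical axis) against their log2 fold over input (horizontal axis) for each peak in a proteasome mRNA, in IP replicate 1 (left) and IP replicate 2 (right), coloured by region, with dotted lines at the limits of 3. In the upper right corner lie 7 and 12 peaks, and none of them is in a 3'UTR.

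Genes that work with the proteasome but carry other symbols were taken as lists. Of 12 partners (chaperones, receptors, deubiquitinases and adaptors), 2 were higher and the other 10 did not pass, where 16.7% of all genes were called higher, so the count is near the background. The median log2 fold of the 12 was 0.28. AKIRIN2, which brings proteasomes into the nucleus, had 161 and 143 CPM in the IP libraries and 65.6 CPM in the input (log2 fold 1.22, SE 0.27, edgeR adjusted p 0.000248). ZFAND5, which stimulates the proteasome, had 164 and 132 CPM in the IP libraries and 92.7 CPM in the input (0.70, SE 0.26, edgeR adjusted p 0.0351). The core chaperone POMP, at 77.1 and 78.2 CPM in the IP libraries and 99.5 CPM in the input (-0.36, SE 0.27), did not pass.

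Of 4 regulators of proteasome genes, 1 was called higher and 0 lower, where 16.7% of all genes were called higher and 11.4% lower. NFE2L2, the transcription factor of the oxidative stress response, had 587 and 512 CPM in the IP libraries and 127 CPM in the input, from 1879, 406 and 281 reads. Its log2 fold was 2.12 (SE 0.30, edgeR adjusted p 3.72e-08). Its relative NFE2L1, which drives the recovery of proteasome subunits when the proteasome is inhibited, had 110 and 93.4 CPM in the IP libraries and 96.8 CPM in the input (0.09, SE 0.26).

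Reads of near-identical copies were few. The 15 proteasome pseudogenes with a row had 27 and 12 exonic reads in the IP libraries and 11 in the input, and no more than 6 in any one row and library. The 4 antisense genes had 24 and 10 reads in the IP libraries and 38 in the input. Of these, PSMD6-AS2 had 11 and 6 in the IP libraries and 25 in the input, beside 196, 46 and 97 for PSMD6 itself. Reads shared between a subunit and its copies could not be followed, as the treatment of multiply mapped reads is not given in the sources used here.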

How the data were processed

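The members and gene lists were chosen with earlier results of these data known. One list of genes fixed for the pathway is not reported here. The submitters' processing notes list STAR, SAMtools, cutadapt and UMI-tools and genome build hg19, while versions, counter, strand handling and peak caller were not given in the sources used here. Raw counts of reads for each gene and transcript region were deposited by the authors. The peak lists the authors deposited give a -log10 p, capped at 400 according to the values, and a log2 fold over input. Rows of intergenic reads (4.05% and 3.78% in the IP libraries, 2.63% in the input) and totals stayed out of the tests.

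Of 29754 Ensembl identifiers 28576 matched the symbol table and the peak lists named 171 more, PSMB3 among them. Exonic counts per gene, and counts per gene and region (introns as 1 region), with at least 10 reads in at least 2 libraries were tested with edgeR 4.0.16 (TMM, glmQLFit, glmQLFTest, Benjamini-Hochberg over all, threshold 0.05; R 4.3.3). With 1 input, the spread was that of the 2 IP libraries (1 residual degree of freedom). The input was taken to vary in the same way. edgeR pooled this spread, with prior degrees of freedom of 75.8 in the gene fit and infinite in the region fit. The p-values and intervals of the gene fit therefore rested mostly on spread shared across genes. Those of the region fit rested wholly on spread shared across regions, and neither rested mainly on a member's own 2 IP libraries. The common dispersion was 0.0272 for genes (coefficient of variation 16.5%) and 0.0356 for regions (18.9%). Unequal use within a gene was tested with diffSpliceDGE. A prior count of 2 was added for the fold of each IP library. CPM is relative to the TMM-scaled reads of that fit and is not per length, so it compares libraries and not genes. Alternatives were scaling to all counted reads, DESeq2 1.42.0, 2 other read filters, other read classes and each IP library alone. The folds of each IP library alone kept the read filter and TMM scaling of all 3 libraries. The named members were those called in the gene fit, the 3 at each end of the fold order, all assembly and activator genes, and those with a peak past the limits or a region used unequally. Members named outside this rule for a single region, an intron or another scaling, among them PSMB4, PSMB5, PSMB8, PSMB9, PSMB10 and PSMD14, were chosen after their values were seen.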

Additional observations from a re-analysis of the deposited data

How the results depend on the processing

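No paired analysis was possible because the input carries no replicate number in the labels and 1 input library served both IP libraries. The gene fit had 1 residual degree of freedom, with spread mostly pooled over genes, and 11 to 413 input reads per member. Standard errors ran from 0.25 to 0.77 on the log2 scale, which limits the differences that can be detected.

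Scaling to all counted reads gave 34 member genes higher and 0 lower with a median of 1.06, 35 coding regions higher (background 78.6%) and 1 3'UTR lower (1.04%). Of the folds called on either scale, it turned 21 from below to above 0: PSMD11 to 0.20, PSMB2 0.46, PSMC5 0.76, PSMD14 0.78, PSMB8 0.88, PSMA1 0.89, PSMB7 0.93, PSMC6 0.95, PSMA5 0.95, PSMG1 0.99, PSMA3 0.99, PSMD8 0.99, PSMB6 1.01, PSME1 1.02, PSMD13 1.03, PSMC4 1.08, PSMC3 1.12, PSMB1 1.12, PSMA7 1.13, PSMD3 1.22 and PSMD1 1.23, where the middle of all genes stood at 1.24. Another 6 turned without a call on either scale (PSMD9, PSME2, PSMD10, PSMB3, PSMG3 and PSMB9). Adding intronic reads gave 5 genes higher (background 19.6%) and 6 lower (background 18.6%) with a median of 0.19, beside 0.02 for all genes, and turned PSME1 to 1.03 and PSMB9 to 1.17, with 12 more turning without a call in either fit. Coding reads alone gave 0 lower and a median of -0.35.

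Of the 44 single folds, DESeq2 left 41 on their side of the threshold and 3 lost their call, and coding reads alone left 39 of 43 and 4 lost it. DESeq2 called 1 gene lower (background 2.46%), 3 coding regions higher (33.1%), 0 3'UTRs lower (1.27%) and 21 of 36 introns lower (69.1%). With no read filter 3 coding regions were higher (20.0%), 5 of 44 3'UTRs lower (5.48%) and 0 regions used unequally (0.255%); with at least 30 reads 23 coding regions were higher (68.8%). With the folds of IP replicates 1 and 2 taken singly, the members' median was -0.198 and -0.0363. That of core was -0.18 and -0.03, of lid and base -0.14 and 0.08, and of assembly -0.65 and -0.36. The adjusted p of PSME3 ran from 0.000349 to 0.807 over the 6 alternatives, of PSMG4 from 0.00400 to 0.953, of PSMD11 from 0.0143 to 0.581 and of PSMB2 from 0.0662 to 0.827. The stricter peak limits (log2 fold 4, -log10 p 5) left 0 and 1 member peaks in IP replicates 1 and 2, where 2.4% and 2.34% of all peaks passed. A log2 fold limit of 1 gave 110 (22.9%) and 37 (14.3%), where 34.3% and 23.9% of all peaks passed. An overlap of 50% of both peaks left 0 shared, where 11.9% of all passing peaks of IP replicate 1 were. The cause of these changes was not tested, except that library scaling shifts all exonic folds together.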
